A study of Mus musculus with 2 samples.

Results

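The heat shock proteins and their DnaJ partners were described in 2 samples of the mouse adrenal gland. Members were the protein-coding genes whose symbol starts with Dnaj, or with Hsp followed by a, b, d, e, h or 9. Hspg2, a matrix proteoglycan, Hspbap1 and pseudogenes (symbols with -ps) were left out. The rule found 73 genes among the 22028 protein-coding genes and 55536 genes of the tables. They comprised 14 HSP70 and HSP110 chaperones, 3 HSP90 chaperones, the 2 subunits of the mitochondrial chaperonin, 8 small heat shock proteins, the exchange factor Hspbp1, 4 DNAJA, 13 DNAJB and 28 DNAJC co-chaperones.

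Total RNA was sequenced from 2 adrenal samples of adult female mice of 8 to 10 months, obtained from The Jackson Laboratory. Both came from a cross of the 5xFAD and CAST strains and formed 1 group, so no untreated, wild-type or other-tissue group stood beside them. 5xFAD is a transgenic model of Alzheimer's disease whose transgenes are driven by the Thy1 promoter, which directs expression to neurons. The labels number the samples as biological replicates 1 and 2, with separate biosample entries, but give both the same donor identifier. The labels do not settle whether these are 2 animals or 2 samples of 1 animal. They are called mouse 1 and mouse 2 here for short, and the spread between them may lie within 1 animal. Each library was made from 300 ng of RNA with ERCC spike-in RNAs added. Whether the spread between the libraries is biological or in part technical was therefore not tested.

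Molecular chaperones bind unfolded or partly folded proteins and help them reach or keep their native shape. HSP70 proteins bind and release their clients in cycles of ATP hydrolysis, which J-domain proteins (the DnaJ family) start and exchange factors such as HSP110 proteins and Hspbp1 complete. HSP90 proteins act later, on clients such as steroid hormone receptors, and the HSP60-HSP10 chaperonin folds proteins imported into mitochondria, of which steroid-producing cells have many. Under stress, heat shock factors bind inverted GAA units, called heat shock elements, before the start of inducible members. Some genes of the endoplasmic reticulum instead carry a stress element made of CCAAT and CCACG boxes.

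The RefSeq promoter table (GRCm38.p6) held 59 of the 73 members, and the 250 bases before the start were searched on both strands. Members without an entry included the abundant Hsp90ab1, Hsp90aa1, Hspa8 and Hspa9, so the shares below do not cover these genes. A heat shock element of 2 inverted units (GAANNTTC or TTCNNGAA) was present in 14 of these 59 members (23.7%) and in 14.55% of the 27025 genes of the table. Of the 8 stress-inducible cytosolic members with a promoter, 6 held one, and Dnajb1 and Hspb8 did not. Of the 10 endoplasmic reticulum members with a promoter, 1 held one, Dnajc10. The run of 3 units (GAANNTTCNNGAA or TTCNNGAANNTTC, each of which also counts as 2-unit matches) occurred in Dnajb6, Hspd1 and Hspe1, which is 5.085% of the members, against 0.514% of all genes. Hspd1 and Hspe1 hold the same run, which was counted for each gene. The near-copy windows of Hspa1a and Hspa1b likewise both count among the 14 members, so these matches are not all separate sites. A match is a description of the letters and not evidence of binding. All sequences printed here are those of the reference assembly, and the CAST alleles of these mice were not read.

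Hspd1 and Hspe1 are transcribed away from each other on chromosome 1. The leading transcripts Hspd1-201 and Hspe1-201 start 107 bases apart, not counting the start bases, and share 1 run of overlapping heat shock units between them. Hspd1-202, another transcript, starts further out, and its first exon covers this stretch. The 30 bases around the run are shown because a single element faces both subunit genes; the plus strand of chr1:55088053-55088082 is printed, with the heat shock units in capitals.
Hspd1 to Hspe1: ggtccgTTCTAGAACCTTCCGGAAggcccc

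Hspa1a and Hspa1b encode the inducible HSP70 and lie on the minus strand of chromosome 17, with 12918 bases between their starts. Their 250 bases before the start are shown because the genes are near copies: the windows differed at 3 bases (98.8% identity), and the coding sequences differed by 10 edits over 1926 and 1929 bases (99.5% identity), which changed or added 1 residue. The windows are chr17:34972157-34972406 for Hspa1a and chr17:34959239-34959488 for Hspa1b, minus strand, with the heat shock element at -104 to -97 from the start in capitals.
Hspa1a: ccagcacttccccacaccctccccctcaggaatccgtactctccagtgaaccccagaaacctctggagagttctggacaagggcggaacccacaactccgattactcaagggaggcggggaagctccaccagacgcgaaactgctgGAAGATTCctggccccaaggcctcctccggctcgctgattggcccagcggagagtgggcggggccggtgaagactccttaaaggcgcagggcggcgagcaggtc
Hspa1b: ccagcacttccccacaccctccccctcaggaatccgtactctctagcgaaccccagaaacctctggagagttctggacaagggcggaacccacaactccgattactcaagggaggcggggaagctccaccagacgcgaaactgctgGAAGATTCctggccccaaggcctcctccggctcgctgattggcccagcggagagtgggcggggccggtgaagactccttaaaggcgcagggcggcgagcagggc

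The endoplasmic reticulum stress element, searched with exactly 9 bases between its boxes, was found in 35 of all genes (0.130%) and in 3 members, all among the 10 endoplasmic reticulum members with a promoter. These were Hspa5, the lumenal HSP70 (BiP), Hsp90b1, the lumenal HSP90 (GRP94), and Dnajc3, a J-protein of the same compartment. The 4 matches are shown with 5 bases on each side and the element in capitals. They lie at chr2:34772020-34772048 (plus strand), chr10:86705633-86705661 and chr10:86705528-86705556 (minus strand; in the second of these the element reads in the opposite direction) and chr14:118937822-118937850 (plus strand). The Hspa5 match lies before the start of the leading transcript Hspa5-202 and inside the first exon of the longer Hspa5-201.
Hspa5: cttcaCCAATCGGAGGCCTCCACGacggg
Hsp90b1, first: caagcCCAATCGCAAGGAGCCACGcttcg
Hsp90b1, second: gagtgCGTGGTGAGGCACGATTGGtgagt
Dnajc3: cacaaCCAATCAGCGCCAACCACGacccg

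The ends of the coding sequences (GENCODE M21 transcripts, mm10) were read next. Many cytosolic HSP70 and HSP90 proteins end in the EEVD signal, which tetratricopeptide co-chaperones bind, and many lumenal chaperones end in the KDEL retrieval signal. The last 33 coding bases of 4 members are shown, with the codons of the signal in capitals and the stop codon last.
Hspa8: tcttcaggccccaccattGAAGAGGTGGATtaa
Hsp90ab1: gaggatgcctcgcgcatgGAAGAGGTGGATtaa
Hspa5: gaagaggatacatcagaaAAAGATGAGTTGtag
Hsp90b1: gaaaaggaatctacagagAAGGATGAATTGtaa

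EEVD codons closed Hspa1a, Hspa1b, Hspa1l, Hspa2, Hspa8, Hsp90aa1 and Hsp90ab1. KDEL codons closed Hspa5, Hsp90b1 and Dnajc10. The promoter and coding-end features overlapped only in part: Hspa5 and Hsp90b1 had both the stress element and KDEL codons. Dnajc3 held the element without KDEL codons, Dnajc10 had these codons without the element, and Dnajb9 and Dnajb11 had neither. The HPD motif, through which the J domain stimulates HSP70, was encoded in 44 of the 45 DnaJ members, and Dnajb13 lacked it. Its codons are shown in capitals for the inducible cytosolic Dnajb1 and the mitochondrial Dnajc15, which had the highest TPM of the DnaJ genes.
Dnajb1: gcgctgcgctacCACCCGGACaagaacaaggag
Dnajc15: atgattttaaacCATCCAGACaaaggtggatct

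The adrenal cortex and medulla were both represented: the 7 cortex markers took 6.93% and 6.82% of the TPM of nuclear protein-coding genes in mouse 1 and mouse 2, and the 7 medulla markers 0.710% and 0.608%. Adipocyte markers, 8 in number, took 0.499% and 0.766%, so fat was also represented and the members' levels are those of the mixed tissue. Of the 6 kidney markers, Umod, Slc12a1, Slc34a1 and Kap were at 0 in both mice. Aqp2 (0.3 and 0.14 TPM) and Lrp2 (0.12 and 0.07 TPM) were low, and no skeletal muscle marker reached 1 TPM in both. The libraries held about 36558600 (mouse 1) and 32192200 (mouse 2) estimated counts in genes. TPM, a share of transcripts, is scaled for transcript length and compares genes within a library. Nuclear protein-coding genes took 29.6% of the TPM of mouse 1 and 32.5% of that of mouse 2, since the short 7S RNAs Rn7s1 and Rn7s2 alone took 40.7% and 37.6%. A messenger RNA that kept its share of all coding TPM would therefore read 1.097 times higher in mouse 2. Ratios between the mice are given as log2 of mouse 2 to mouse 1 after TMM scaling of counts, which largely removes this shift.

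Of the 73 members, 62 (84.9%) reached 1 TPM in both mice, against 54.1% of nuclear protein-coding genes. Their levels summed to 3725 and 3919 TPM, or 1.26% and 1.21% of the TPM of nuclear protein-coding genes. The mean level was at least 100 TPM for 9 members, 10 to under 100 TPM for 35, 1 to under 10 TPM for 18 and under 1 TPM for 11. The 8 most abundant members held 69.8% of the members' TPM in mouse 1 and 68.0% in mouse 2. They were 3 HSP90, 3 HSP70 and both chaperonin genes, so the message pool was dominated by the core chaperones and not by J-proteins.

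**Figure D1:**
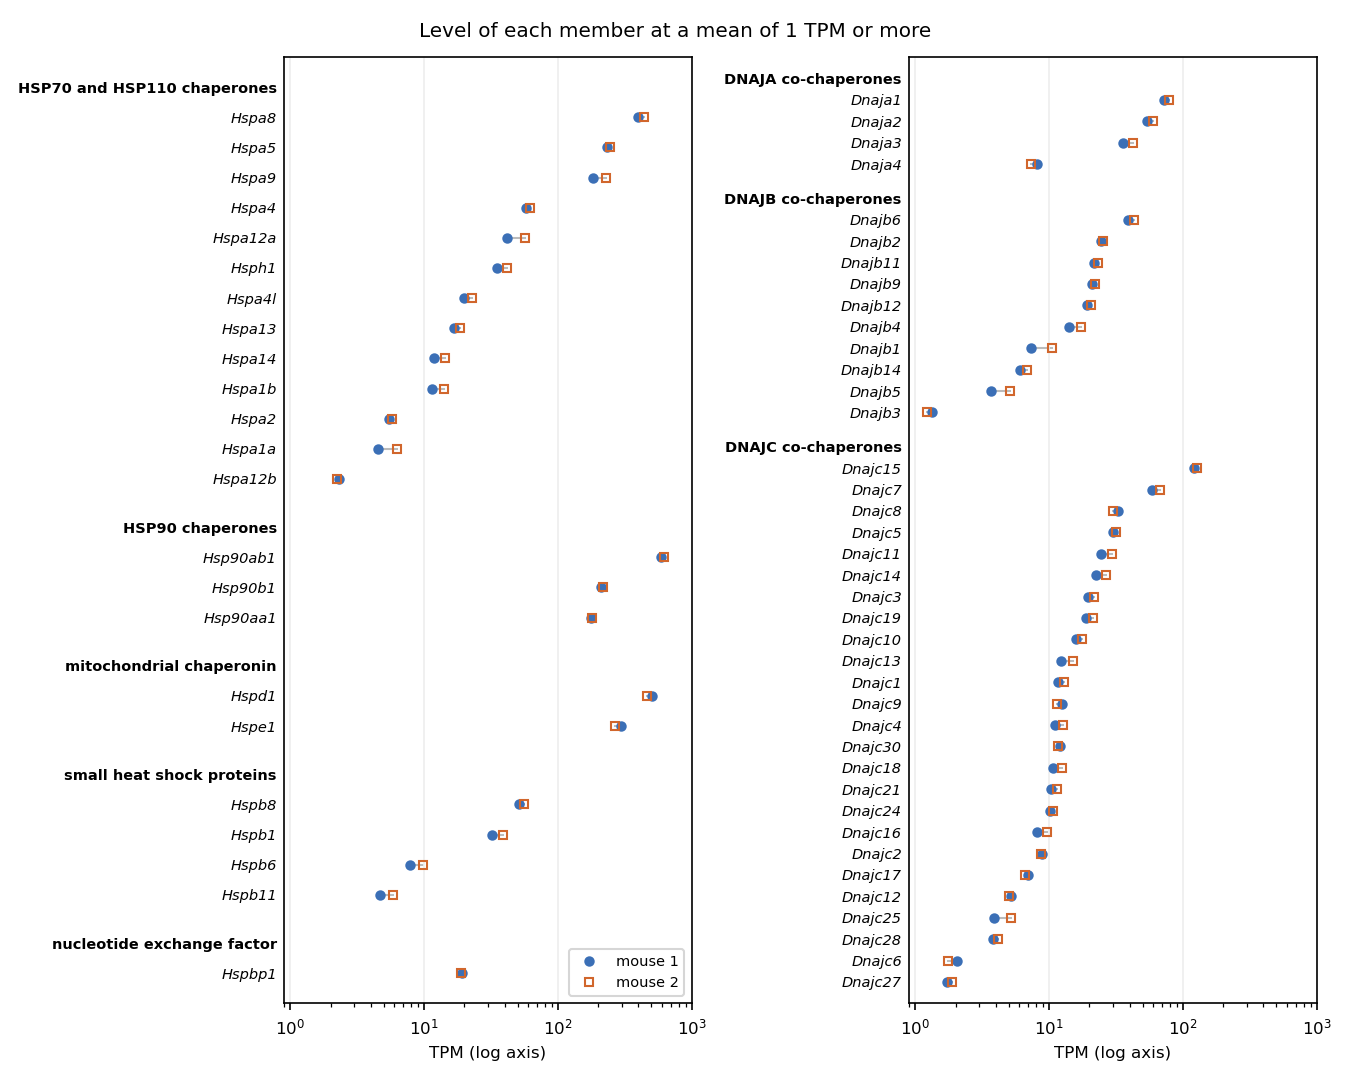
TPM of the 62 members with a mean of 1 TPM or more, on a log axis, by role class; filled circles are mouse 1 and open squares mouse 2. Levels ran from about 1 TPM (Dnajb3, mean 1.28) to 609 TPM (Hsp90ab1, mean), and the 2 mice lay close together beside this range.

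Among HSP70 genes, Hspa8, the constitutive cytosolic form, was the most abundant, with 399.6 TPM (mouse 1) and 439 TPM (mouse 2); values below are in this order. Hspa5 followed at 235 and 244 TPM. Hspa9 (mortalin), which pulls proteins into the mitochondrial matrix, stood at 182 and 229.6 TPM. The cytosolic, lumenal and mitochondrial HSP70 were thus within a factor of 2.20 of each other in mouse 1 and of 1.91 in mouse 2. The inducible pair was far lower: Hspa1b stood at 11.5 and 14.1 TPM and Hspa1a at 4.53 and 6.30 TPM. Hspa8 exceeded Hspa1a 88.2-fold in mouse 1 and 69.7-fold in mouse 2, and Hspa1b 34.6-fold and 31.1-fold. Hspa1b exceeded Hspa1a 2.55-fold and 2.24-fold in TPM, although reads from their near-identical parts can be split between them by the estimate. Reads were assigned to the mm10 reference, and whether CAST variants moved reads between the copies was not tested.

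The HSP110 exchange factors Hspa4 (57.6 and 62.2 TPM), Hsph1 (35.3 and 41.5 TPM) and Hspa4l (19.7 and 22.7 TPM) were all expressed above the inducible HSP70 genes. Hspa12a, a distant relative of HSP70, stood at 41.4 and 56.65 TPM. Hspbp1, the other exchange factor, was at 19.1 and 18.9 TPM. Hspa1l, the testis form that lies 547 bases from Hspa1a in the opposite direction, was under 0.1 TPM in both mice.

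Hsp90ab1, the constitutive cytosolic HSP90, was the highest member at 593 and 624 TPM (mean 609 ± 21.4, SD, n = 2 libraries) and ranked 22 among nuclear protein-coding genes. Its inducible counterpart Hsp90aa1 reached 176 and 179 TPM, so that Hsp90ab1 exceeded it 3.36-fold and 3.48-fold. Hsp90b1 of the endoplasmic reticulum stood at 209.8 and 219 TPM. Its ratio to Hspa5 in TPM was 0.894 in mouse 1 and 0.897 in mouse 2.

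The chaperonin subunit Hspd1 (HSP60) was second among the members, at 505.5 and 464 TPM. Hspe1 (HSP10), its lid, followed Hspa8 at 298 and 266 TPM. Both were lower in mouse 2, and their ratio in TPM was nearly the same, 1.70 and 1.75. The 10 mitochondrial members together took 32.5% and 30.9% of the members' TPM, against 15.97% and 16.02% for the 12 members of the endoplasmic reticulum.

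Among small heat shock proteins, which hold unfolding proteins without using ATP, 4 of 8 reached 1 TPM in both mice. Hspb8, the partner of Bag3 in chaperone-assisted autophagy, stood at 51.4 and 56.1 TPM and Hspb1 (HSP27) at 32.4 and 39.1 TPM. Hspb8 exceeded Hspb1 1.59-fold and 1.44-fold. Hspb6 was at 7.88 and 9.75 TPM and Hspb11, named with this family but known as an intraflagellar transport protein, at 4.66 and 5.89 TPM. The muscle forms Hspb2 (0.89 and 0.61 TPM) and Hspb7 (0.11 and 0.17 TPM) were low, and Hspb3 and Hspb9 were under 0.1 TPM.

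All 4 DNAJA genes were expressed, led by the cytosolic Dnaja1 (72.6 and 78.3 TPM) and Dnaja2 (54.2 and 59.45 TPM). Dnaja3, their mitochondrial relative, stood at 35.7 and 42.6 TPM and Dnaja4 at 8.12 and 7.31 TPM. Of 13 DNAJB genes, 10 reached 1 TPM in both mice. Dnajb6, which keeps aggregation-prone proteins soluble, led at 38.75 and 43.4 TPM, before Dnajb2 (24.6 and 25.5 TPM) and the lumenal Dnajb11 (21.6 and 23.2 TPM) and Dnajb9 (20.8 and 22.0 TPM). Dnajb1, the stress-inducible HSP40, was seventh of its class at 7.37 and 10.4 TPM. Dnaja1, listed below as stress-inducible but also expressed constitutively, exceeded Dnajb1 9.85-fold and 7.50-fold.

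Of 28 DNAJC genes, 25 reached 1 TPM in both mice. Dnajc15, of the inner mitochondrial membrane, led at 121 and 128 TPM, and was the only DnaJ gene above 100 TPM, although its coding transcript was at 8.14 and 9.97 TPM and short forms made up the rest. Dnajc7, which carries tetratricopeptide repeats and binds HSP70 and HSP90, reached 58.45 and 67.0 TPM. Next came the splicing-associated Dnajc8 (32.8 and 30.3 TPM), Dnajc5 (30.2 and 31.7 TPM), the cysteine string protein of secretory vesicles, and Dnajc11 (24.3 and 29.5 TPM). The 11 members known mainly from testis or muscle summed to 2.54 and 2.72 TPM, and 1 of them, Dnajb3, reached 1 TPM in both mice. Dnajb7 and Dnajc5g had 0 counts in both mice, and Dnajb8, Dnajc5b, Hspb3 and Hspb9 had at most 3. A count of 3, the limit that a count of 0 allows, corresponds to 0.0821 CPM for mouse 1 and 0.0932 CPM for mouse 2.

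The 2 libraries were compared with each other to show how much the members differed between them. With 1 library on each side there is no test of a condition. The exact two-sided binomial test, with Benjamini-Hochberg adjustment over all genes tested, asks only whether 2 libraries differ by more than counting noise. Of the members, 65 averaged 10 counts or more and were tested. None of the 65 was 2-fold higher or lower in mouse 2, against 1.16% of all 17666 genes tested that were 2-fold higher and 1.81% that were 2-fold lower. Among nuclear protein-coding genes averaging 100 counts or more, as 61 of the members did, 16 and 22 of 11739 were 2-fold higher and lower. Differences of 2-fold were thus rare at this depth in general. Beyond counting noise, 5 members were higher and 10 lower in mouse 2, against 10.4% and 11% of all genes. The deeply counted members were called more often, as were all deeply counted genes: among those averaging 1000 counts or more, 3 and 8 of 38 members were called, against 18.9% and 18.2% of genes at that depth. The median log2 ratio was -0.03 over the 65 members tested and 0.00 over all genes tested. With total-count scaling these medians were 0.02 and 0.05, so the sign of the members' median depended on the scaling.

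**Figure D2:**
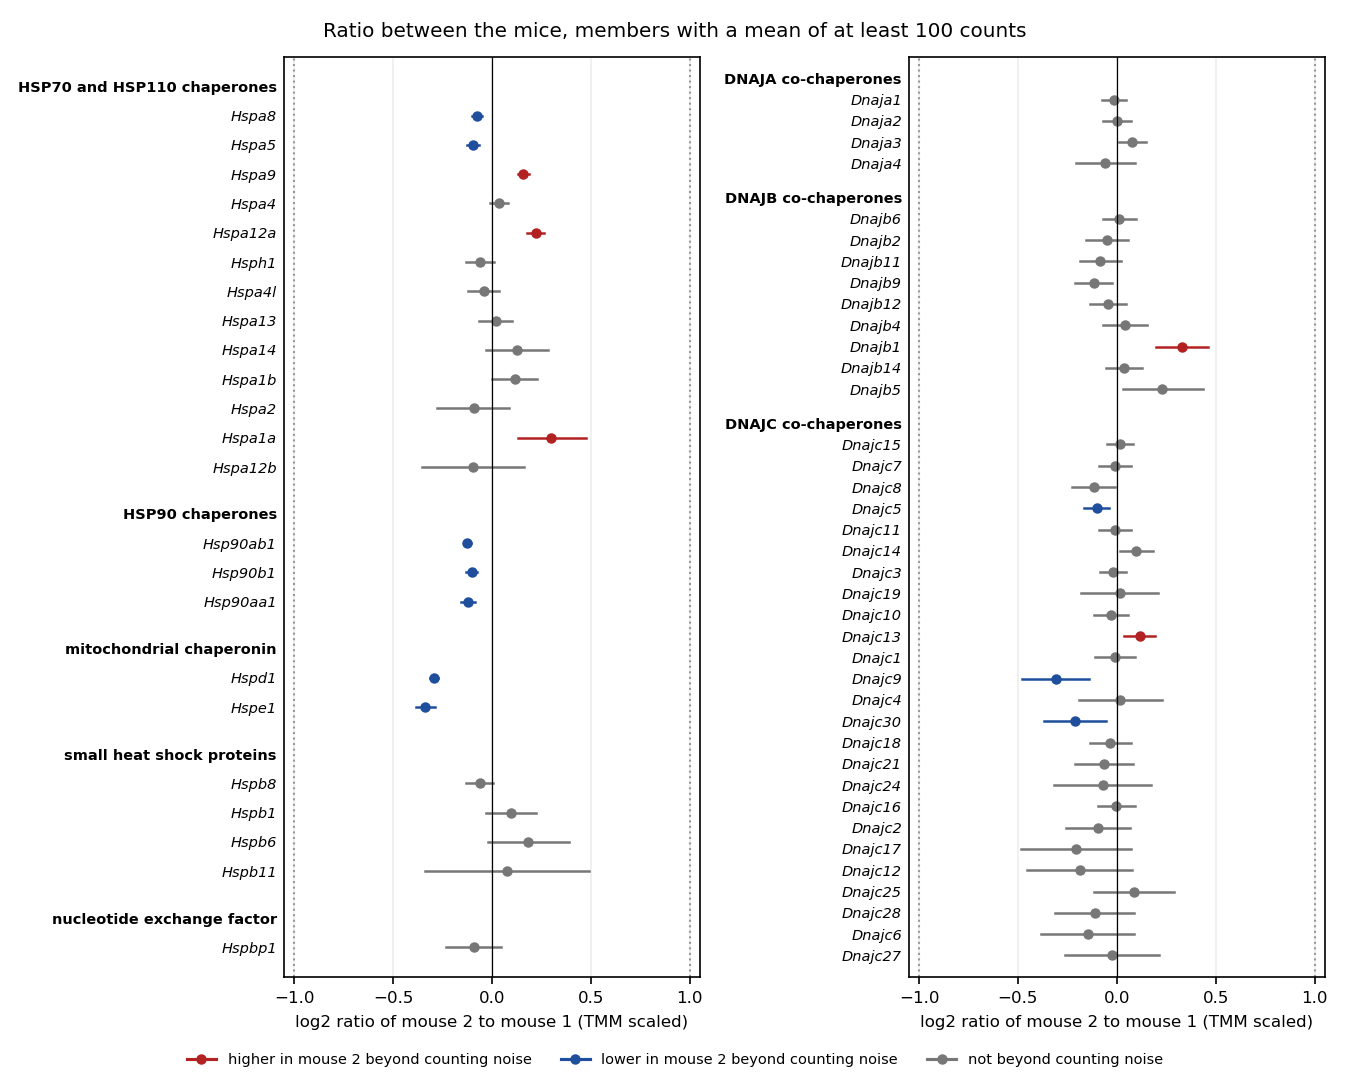
Log2 ratio of mouse 2 to mouse 1 (TMM scaled) for the 61 members averaging 100 counts or more, by role class; bars are 95% intervals for counting error and dotted lines mark 2-fold. The 15 coloured points differed beyond counting noise, and the values stayed between -0.34 (Hspe1) and 0.33 (Dnajb1).

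The chaperonin pair moved together. Hspd1 had 47499 counts in mouse 1 and 35275 in mouse 2, a log2 ratio of -0.29 (interval -0.31 to -0.27, adjusted p = 1.07e-184 by the exact binomial test). Hspe1 had 8202 and 5917 counts, a log2 ratio of -0.34 (interval -0.39 to -0.29, adjusted p = 6.11e-41 by the same exact test). Their intervals overlapped, and both were lower in mouse 2 under every scaling and in both quantifications. Hspa9, the HSP70 of the same compartment, went the other way, with 21201 and 21553 counts and a log2 ratio of 0.16 (interval 0.13 to 0.19, adjusted p = 6.55e-28, exact binomial test). Of the 10 mitochondrial members, 1 was higher and 3 lower beyond counting noise, 5 log2 ratios lay above 0 and 5 below, and the median was 0.00. The third lower one was Dnajc30, a J-protein of the respiratory chain, at 766 and 603 counts and a log2 ratio of -0.21 (adjusted p = 0.0374, exact binomial test), which was not called with total-count scaling (log2 ratio -0.16).

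All 3 HSP90 genes were slightly lower in mouse 2. The log2 ratio was -0.12 for Hsp90ab1, -0.12 for Hsp90aa1 and -0.10 for Hsp90b1, and each was beyond counting noise with every scaling. Hspa8 (-0.08) and Hspa5 (-0.10) were also lower beyond counting noise; Hspa8 lost the call with total-count scaling (-0.03). The counts of these 5 members lay between 13143 and 57797, where counting intervals are narrow.

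The 5 members that were higher in mouse 2 were Dnajb1, Hspa1a, Hspa12a, Hspa9 and Dnajc13. Dnajb1 had 867 and 992 counts, the largest log2 ratio among members with at least 100 counts, 0.33 (interval 0.20 to 0.46, adjusted p = 1.49e-05, exact binomial test). Hspa1a had 529 and 594 counts and a log2 ratio of 0.30 (interval 0.13 to 0.47, adjusted p = 0.00388, exact binomial test). Its near copy Hspa1b had 1270 and 1254 counts and a log2 ratio of 0.12 (interval 0.00 to 0.23, adjusted p = 0.144, exact binomial test). In the second quantification the ratios were 0.18 for Hspa1a, no longer called, and 0.17 for Hspa1b, now called, so the division of the difference between the copies depended on the estimate. With both copies summed, a comparison added after the data were seen, the log2 ratio was 0.17 (interval 0.08 to 0.27).

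The list of stress-inducible cytosolic members held 10 genes, among them Hspa8 and Dnaja1, which are also expressed constitutively. Of the 10, 2 were higher (Dnajb1 and Hspa1a) and 2 lower (Hsp90aa1 and Hspa8) beyond counting noise, and the median log2 ratio was 0.01. Without Hspa8 and Dnaja1, a choice made after the data were seen, 2 were higher and 1 lower of 8, with a median of 0.07. Hsph1 (-0.06), Hspb8 (-0.06), Dnaja1 (-0.01), Dnajb4 (0.04), Hspb1 (0.10) and, as given above, Hspa1b (0.12) were not called. Dnaja1 read 0.03 with total-count scaling and 0.09 in the second quantification, where it was called higher.

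Hspa12a had 7967 and 8459 counts and a log2 ratio of 0.22 (interval 0.18 to 0.27, adjusted p = 5.90e-21, exact binomial test). Dnajc13, an endosomal J-protein, was at 2676 and 2639 counts and 0.11 (adjusted p = 0.0226, exact binomial test), and lost the call with spike-in scaling. Dnajc9, which handles histones, had 686 and 504 counts and a log2 ratio of -0.31 (interval -0.48 to -0.14, adjusted p = 0.00228, exact binomial test). Dnajc5 stood at -0.10 (adjusted p = 0.0114, exact binomial test) and lost the call with total-count scaling. Of the remaining members named for large ratios, Dnajb5 (0.23), Hspb6 (0.18), Dnajc17 (-0.21) and Dnajc12 (-0.19) were not called; Dnajc12 assists the aromatic amino acid hydroxylases, which include the tyrosine hydroxylase of the medulla. In the main setting (first quantification, all genes averaging 10 counts or more, TMM scaling) no DNAJA gene and no small heat shock protein was called. Apart from Dnajb1, no DNAJB gene was called there either. Total-count scaling and the second quantification also called Dnaja3 (0.13 and 0.08) and Dnajb5 (0.28 and 0.27) higher. Dnajb9 (-0.12) was called lower with spike-in scaling, among protein-coding genes alone and with a minimum of 100 counts.

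The partners of the members were read in the same libraries, from lists of textbook cofactors. Over all genes tested, 10.4% were higher and 11% lower beyond counting noise, and 18.9% and 18.2% among those averaging 1000 counts or more, as most of these cofactors did. Of 14 HSP90 cofactors, 5 were lower and 0 higher in mouse 2 beyond counting noise, with a median log2 ratio of -0.06. The lower ones were Fkbp4 (-0.23) and Unc45a (-0.24), Stip1 (-0.18), which joins HSP70 to HSP90, Ptges3 (-0.14), the p23 that stabilises bound HSP90, and Aarsd1 (-0.27). Of 12 HSP70 cofactors, 3 were higher and 2 lower. Bag4 (0.26), Bag3 (0.12) and the mitochondrial exchange factor Grpel1 (0.14) were higher, and Bag1 (-0.29) and Sgta (-0.09) were lower. In the endoplasmic reticulum stress list of 15 genes tested, 1 was higher and 7 lower: Ddit3, the CHOP transcription factor, was higher (0.39) and Sdf2l1, a cofactor of Hspa5, was lowest (-0.49). The 7 include ratios near 0, such as Calr (-0.06) and Pdia3 (-0.07). All these lists were read with TMM scaling alone. Total-count scaling moved the median of all genes tested from -0.001 to 0.047, so calls at ratios of this size depend on the scaling. Of 5 heat shock factors and related genes tested, 0 were called by the exact binomial test. Hsf1, the main stress factor, was at 14.4 and 17.97 TPM with a log2 ratio of -0.01, and Hsf2 had the ratio nearest to a call (0.23, adjusted p = 0.0611, exact binomial test).

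**Figure D3:**
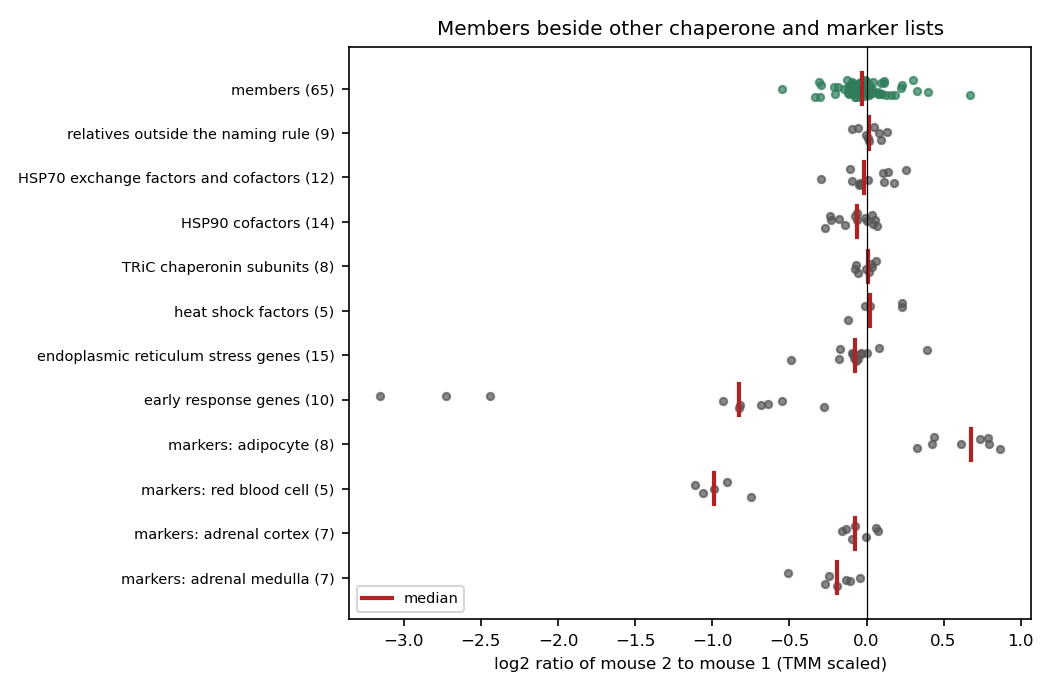
Log2 ratio of mouse 2 to mouse 1 (TMM scaled) for each gene tested, as points, in the members and in other lists, with the number of genes in parentheses and the median as a red bar. The members sit around 0 (median -0.03), while early response genes (median -0.82) and red blood cell markers (-0.99) were lower and adipocyte markers (0.68) higher in mouse 2.

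Some other lists differed far more between the libraries than the members did, while typical genes did not. The median absolute log2 ratio was 0.084 for members averaging 100 counts or more and 0.097 for nuclear protein-coding genes at that depth. It was 0.076 for the cortex markers, 0.063 for endothelium markers and 0.046 for the subunits of the cytosolic chaperonin TRiC. Early response genes, which are induced within minutes of stimulation or handling, were lower in mouse 2 in 10 of 10 and beyond counting noise in 9, with Fos at -3.15, Junb at -2.72 and Egr1 at -2.44. Their levels summed to 477 and 275 TPM. All 8 adipocyte markers were higher in mouse 2, 7 of them beyond counting noise, with sums of 1471 and 2475 TPM. The 5 red blood cell markers were all lower (sums of 747 and 409 TPM), and the 7 medulla markers had a median log2 ratio of -0.19. In whole tissue, fewer cells of a type and less RNA per cell cannot be told apart, and the part of these differences in the members' ratios was not tested.

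Members often had several annotated transcripts, and the deposited transcript percentages showed which of them carried the level. Of the 55 members at a mean of 5 TPM or more, 19 had a leading transcript with at least 90% of the gene and 46 one with at least 50%, and the median leading share was 76.9%. The leading transcript was annotated as protein coding in 51. Hspd1-201 (99.0% and 99.2%), Hspe1-201 (98.45% and 98.25%), Hsp90ab1-201 (98.45% and 96.6%), Hspa9-201 (96.5% and 96.25%) and Hsp90b1-201 (96.2% and 97.4%) held nearly all of their gene in the first quantification. The second gave shares of 96.8% or more for these transcripts, except Hsp90ab1-201 at 84.6% and 75.5%.

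**Figure D4:**
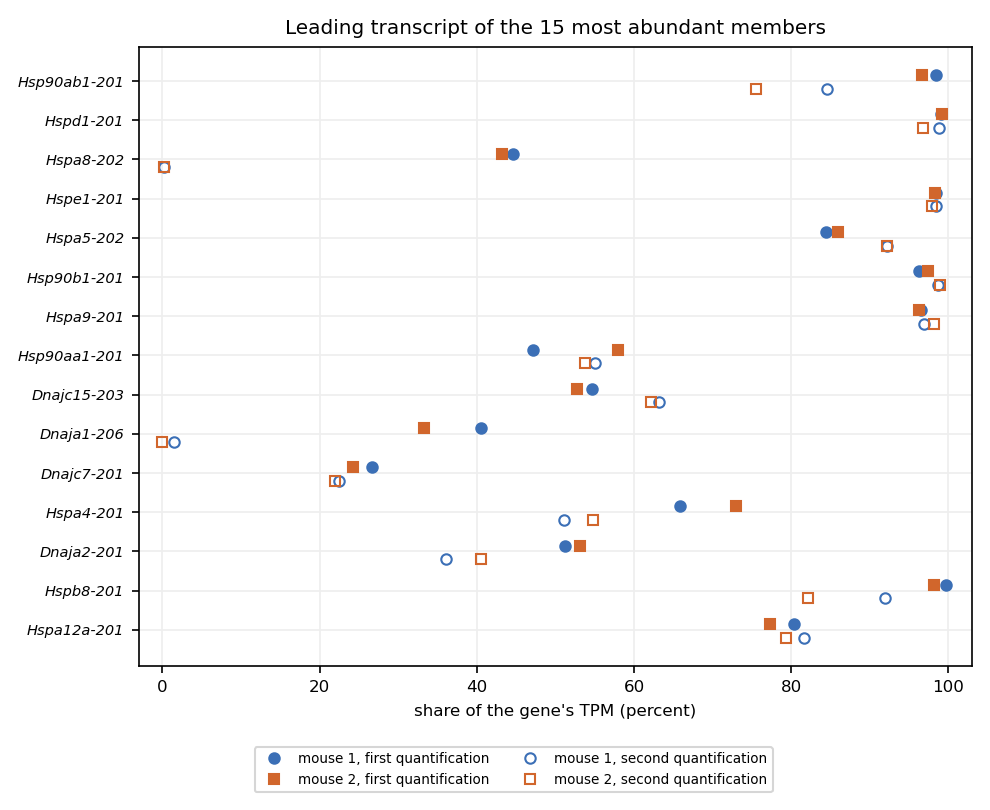
Share of the gene's TPM held by the leading transcript of the 15 most abundant members, in percent; filled symbols are the first quantification and open symbols the second, circles mouse 1 and squares mouse 2. The second quantification gave Hspa8-202 and Dnaja1-206 at most 0.201% and 1.48%, where the first gave 44.6% and 40.5% in mouse 1.

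Other abundant members were divided. In the first quantification Hspa8-202 held 44.6% and 43.25% and Hspa8-201, the transcript with the complete longest coding sequence, 30.55% and 28.8%. The second quantification gave Hspa8-202 0.201% and 0.141% and Hspa8-201 50.8% and 53.9%. Dnaja1-206, a processed transcript of 571 bases, likewise fell from 40.5% and 33.3% to 1.48% and 0%. The level of the gene was less affected: Hspa8 read 399.8 and 404 TPM and Dnaja1 66.7 and 77.9 TPM in the second quantification. Dnajc15 was led by the short processed transcript Dnajc15-203 (419 bases) in both, at 54.6% and 52.7% in the first and 63.2% and 62.1% in the second. Its protein-coding transcript Dnajc15-202, of 6193 bases, held 6.75% and 7.82%. These shares are per length: of the estimated counts, Dnajc15-202 held 2019 of 3962 and 1996 of 3651.

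Agreement on the leading transcript was found for 49 of the 55 members. Its share differed by over 20 percentage points between the mice in 4: Hspb11-201 (65.2% and 31.6%), Dnajc8-202 (69.5% and 92.7%), Dnaja4-201 (76.8% and 99.05%) and Dnajb2-208 (16.1% and 36.9%). In the second quantification Hspb11-201 held 21.2% and 34.8%, in the opposite order, and Dnajb2-208 4.03% and 5.66%. Dnajc8-202 (46.9% and 61.7%) and Dnaja4-201 (55.4% and 73.0%) were again higher in mouse 2, by under 20 points. No test of transcript shares was made.

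At the gene level the quantifications were close. Of the 62 members at a mean of 1 TPM or more, 0 were 2-fold apart, against 4.84% of the 13524 genes at that level. Within 1.5-fold were 61 members, and the largest differences were in Dnajc11 (24.3 and 29.5 TPM in the first, 40.5 and 46.5 TPM in the second), Dnajc25 and Hspb11. Hspa1a was the lowest in the second relative to the first (log2 ratio -0.30), at 3.84 and 4.85 TPM. The posterior SD of the first quantification, the deposited uncertainty of assigning reads, was 22.7 counts for Hspa1a in mouse 1, and 4.30% of the count was the largest share among members with at least 100 counts. It was 0 in both mice for 40 of those 61 members, so the deposited estimate gave no ambiguity for their reads.

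**Figure D5:**
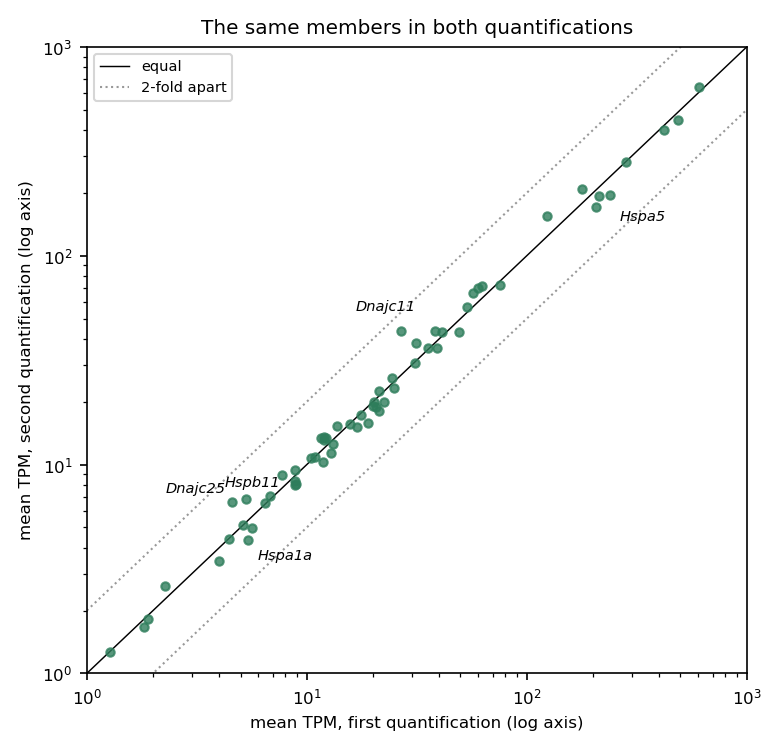
Mean TPM over both mice of the 62 members in the first (horizontal) and second (vertical) quantification, both on log axes; the solid line is equality and dotted lines are 2-fold. All points lie inside the 2-fold lines, with Dnajc11 nearest to the upper one.

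Exons of 28 members overlapped those of another gene. In 6 members at least 10% of the exon bases were shared with a gene at 1 TPM or more, always on the opposite strand: Dnaja4 with Wdr61 (44.1%), Hspb2 with Cryab (30.2%), Dnajc30 with Bud23 (26.2%), Dnajc14 with Ormdl2 (17.0%), Dnajb13 with Ucp2 (11.2%) and Hsp90b1 with 1810014B01Rik (10.3%). The library kit keeps the strand, but whether the counting used it is not given in the sources used here. The levels of these 6 members, and the Dnajc30 and Hsp90b1 ratios, may therefore include reads of the partner.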

How the data were processed

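Total RNA-seq of the adrenal gland was read for 2 samples of 1 group. The deposited gene tables hold estimated (expected) counts, TPM and FPKM, and the transcript tables add the percent of each gene held by a transcript, per the file headers. They were quantified from transcriptome alignments on mm10 with GENCODE M21, per the deposited file list. A second deposited quantification, made straight from the reads with a transcript index, gives estimated counts and TPM per transcript, which were summed to genes; 86 genes had no row in it. Tool names for alignment and counting: not given in the sources used here. ERCC rows (0.502% and 0.526% of counts) stayed out of library sizes.

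Expected counts were rounded, given TMM factors (edgeR 4.0.16 under R 4.3.3) and turned into log2 ratios with a prior count of 2, where a gene averaged 10 counts or more. The exact two-sided binomial test (binom.test in R) used the effective library sizes and Benjamini-Hochberg adjustment at 0.05. Tests, 95% intervals (exact Clopper-Pearson) and the limit of 3 counts cover counting error only, and with 1 group no p-value compares conditions. The code was tested on simulated data. TPM was compared between quantifications after adding 0.1.

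Named members were the 4 highest of each class, the 6 largest ratios in each direction at 100 counts or more, those under 0.1 TPM in both mice and fixed core members; other members and the cofactors called were named after their values were seen. Members and lists were chosen with earlier results of these data known. Alternatives were total-count, DESeq2 1.42.0 median-of-ratios and spike-in scaling, other filters and prior counts, protein-coding genes alone, the second quantification, FPKM and single mice.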

Additional observations from a re-analysis of the deposited data

Results flagged for a closer look

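Pseudogenes of the members lie outside the naming rule, and 3 of them lay above the limit of 3 counts that stands for none. Hspd1-ps3 had 381 estimated counts in mouse 1 and 276 in mouse 2, at 5.77 and 5.17 TPM, but 0.403 and 0.467 TPM in the second quantification. Its log2 ratio between the mice was -0.33, beside -0.29 for Hspd1. Hspd1-ps4 had 8 and 10 counts and Hspa9-ps1 4 and 6.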

How the results depend on the processing

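No paired analysis was possible because both mice belong to 1 group. Rescaling TPM to nuclear protein-coding genes raised the members' summed level from 3822 TPM (mean) to 12385, since non-coding RNA leaves the total; without 1 mouse it lay between 3725 and 3919 TPM, and the second quantification gave 3812. The count of members at 1 TPM in both mice was 62 without either mouse and 63 and 53 at thresholds of 0.5 and 5 TPM. No member was 2-fold apart between the mice under the scalings, prior count and stricter filters tried; with no count filter 3 were 2-fold higher (Dnajb8, Dnajc5b and Hspb3, each with 0 counts in mouse 1 and at most 3 in mouse 2), which are under the limit of counting. Members beyond counting noise numbered 15 to 19 under the other scalings, filters and quantification, and 11 when only those with a mean of at least 1000 counts were counted, an alternative chosen after seeing the data. Total-count scaling kept 5 of 5 higher and 7 of 10 lower calls, added 5 higher ones and moved the members' median log2 ratio from -0.03 to 0.019, with all genes at 0.05. Spike-in scaling kept 4 and 10 calls and the second quantification 4 and 10. Dnaja1 changed from -0.01 to 0.088 in the second quantification; the cause was not tested. Of 41 named levels, 22 moved by more than their SD in the second quantification (14 up, 8 down), and of 24 leading transcript shares 20 moved (5 up, 15 down). With 2 libraries, 1 tissue and no control group, depth limits the statements on members under 10 counts, of which 8 were not tested.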

Other observations

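Chaperones that the naming rule leaves out were also well represented. The 8 subunits of the TRiC chaperonin, which folds actin and tubulin in the cytosol, ran from 40.2 TPM (Cct4) to 86.9 TPM (Cct3) in mouse 1 and from 44.8 TPM (Cct4) to 93.1 TPM (Cct5) in mouse 2, a narrow range for genes of 1 complex. None of the 8 differed beyond counting noise between the mice by the exact binomial test, and their median log2 ratio was 0.01. Relatives of the members under other names included Hyou1, the HSP110 of the endoplasmic reticulum (65.5 and 73.8 TPM), Trap1, the mitochondrial HSP90 (63.4 and 68.6 TPM), and Clpb, a mitochondrial disaggregase (23.9 and 31.0 TPM). Hyou1 was lower in mouse 2 beyond counting noise with TMM scaling (log2 ratio -0.06, interval -0.10 to -0.02), as its partner Hspa5 was. It was the only one called among the 9 relatives tested. Hspa5 kept its call with total-count scaling, while Hyou1 was read with TMM scaling alone. With total-count scaling the median of all genes tested was 0.047, so a ratio as small as that of Hyou1 depends on the scaling.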
